A study of Rattus norvegicus with 8 samples.

Results

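The comparison asked what CAT-SKL changed when it was given to neurons that had already received amyloid oligomers. It set the 2 arrays of neurons treated with ADDL and then with CAT-SKL (ADDL+CAT-SKL) against the 2 arrays of neurons treated with ADDL alone, 4 of the 8 arrays in the series. Members were chosen by the titles of the arrays, and the difference was taken for each of the 22459 genes and unnamed accessions whose probes were above background. The cells were primary cortical and hippocampal neurons of Sprague Dawley rat embryos at day 18 (E18), kept for 7 days in vitro. The ADDL group received 1 µM ADDL for 24 h, and the ADDL+CAT-SKL group received 1 µM ADDL for 24 h followed by 1 µM CAT-SKL for another 24 h, 48 h in all. The other 2 groups, which enter only where they are named, received CAT-SKL alone for 24 h, or CAT-SKL and then ADDL (CAT-SKL+ADDL) for 24 h each. On each array the treated RNA carried Cy5 and RNA of vehicle-treated neurons carried Cy3, without any exchange of dyes, so values are log2 ratios of treated over vehicle and a dye effect of a probe cancels only in the difference between arrays. Length of treatment and slide row differed between the ADDL and ADDL+CAT-SKL arrays, and neither can be told apart from the added CAT-SKL.

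ADDL are soluble oligomers of amyloid-beta, whose deposits mark the brain in Alzheimer's disease, and they are known to bind at synapses and to raise oxidative stress. Catalase breaks down hydrogen peroxide, mostly inside peroxisomes, and CAT-SKL is a catalase with a strong peroxisomal targeting signal that enters cells as a protein. Neurons respond to calcium and cAMP signals with a wave of immediate early genes, among them Arc and the Egr factors, followed by genes of secreted peptides.

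The cultures were neuronal by their labels, and marker genes of other cells were measured as well. Of the marker lists, 17 of 18 pan-neuronal genes, 16 of 18 astrocyte markers, 16 of 16 oligodendrocyte lineage markers and 18 of 20 microglia markers were measured. Over all probes, 25363 of 30367 passed the same background filter, so these counts alone do not show which cell types were present. In Cy5, 73.3% to 81.0% of the probes of an array stood well above background, and 0 spots were saturated. The median Cy5 signal was lowest in ADDL+CAT-SKL replicate 2, at 87.5, against 97 to 127.5 on the other 7 arrays. The CAT-SKL+ADDL arrays differed by no more than spot noise and were averaged, which left 7 samples. Replicates of the 3 other groups differed by similar amounts. Replicate 2 minus replicate 1 had an SD across genes of 0.167 (log2) for CAT-SKL, 0.158 for ADDL and 0.161 for ADDL+CAT-SKL. The ADDL+CAT-SKL minus ADDL difference, which averages 2 arrays per group and so carries less noise than a single pair, had an SD of 0.146.

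With loess scaling, the main setting, no gene passed the test in the fit of all 7 samples. With limma and Benjamini-Hochberg adjustment, 0 of 22459 genes (0%) had an adjusted p under 0.05, and the smallest adjusted p was 0.573. At an unadjusted p under 0.05 there were 837 higher genes (3.73%) and 1048 lower genes (4.67%), 8.39% together. The vehicle channel alone, described further on, gave 8.58%. Both ADDL+CAT-SKL arrays lay above both ADDL arrays for 4284 genes (19.1%) and below both for 4620 (20.6%). With 2 arrays against 2, an exact permutation test of a single gene cannot give a p below 0.333. The median difference over all genes was -0.01. The count depended on the scaling: with each array centred on its median in place of loess, limma called 30 genes in the same 7 samples (26 higher and 4 lower, smallest adjusted p 0.00495), among them Ucn, Cdhr1, Tac1, Pdyn, Scg2, Crem, Ercc1, Nefm and Cdh6. Differences below are from the loess fit and did not pass there, unless a sentence names the fit of 4 arrays.

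In the fit restricted to the 4 arrays of the comparison, an alternative planned beside the main one, limma called 13 genes (0.0579%), 12 higher (0.0534%) and 1 lower. That count too depended on the scaling: on the same 4 arrays it was 9 without background correction, 0 with the deposited log ratios and 141 with median centring, where limma gave every gene the same standard error, so that the 141 is not a usable count. Close replicates within the compared groups follow from the selection of the 13 genes. The gene with the largest difference was Cdhr1, a cadherin-related adhesion protein known from photoreceptors. Its log2 ratios to vehicle were 2.28 and 2.17 with ADDL and 0.13 and 0.03 with ADDL+CAT-SKL. Both ADDL arrays were high and both ADDL+CAT-SKL arrays were near vehicle, with no overlap. The difference was -2.15 ± 0.58 (SE, n = 2 arrays per group, limma adjusted p = 0.573), or 4.42-fold less, and on the 4 arrays alone the limma adjusted p was 0.000691.

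Of the 12 higher genes, Pdyn, Gal, Penk and Scg2 are on the neuropeptide list described further on. Ucn, which is not on it and encodes the stress peptide urocortin, had log2 ratios of -0.67 and -0.66 with ADDL and 0.30 and 0.60 with ADDL+CAT-SKL. It lay below vehicle on both ADDL arrays and above it on both others. The difference was 1.11 ± 0.22 (limma adjusted p = 0.573, 95% interval 0.60 to 1.62), and on the 4 arrays alone the limma adjusted p was 0.0440. Pdyn, the dynorphin precursor, had -0.37 and -0.37 against 0.48 and 0.66, a difference of 0.94 ± 0.21. Gal, the precursor of galanin, had -0.82 and -0.73 against 0.07 and 0.19, a difference of 0.91 ± 0.25, and a second probe of Gal gave 0.75. The same order of groups, without overlap, held for both genes. Pnoc, the precursor of nociceptin and also not on the list, had -0.68 and -0.64 against 0.15 and 0.26. Penk, the enkephalin precursor, had -0.23 and -0.38 against 0.49 and 0.53. Scg2, a granin of dense-core vesicles, had -0.30 and -0.31 against 0.43 and 0.48. Differences were 0.86 for Pnoc, 0.82 for Penk and 0.76 for Scg2, each with both ADDL+CAT-SKL arrays above vehicle.

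The other higher genes were Gprc5a, Emp1, Alkal2, Inhba, Slc40a1 and Tnfrsf12a. Gprc5a, an orphan receptor induced by retinoic acid, had -0.81 and -0.76 with ADDL and 0.29 and 0.34 with ADDL+CAT-SKL, a difference of 1.10 ± 0.31. Emp1, an epithelial membrane protein gene, had -0.81 and -0.89 against 0.24 and 0.16, a difference of 1.05 ± 0.32. Alkal2, a ligand of the ALK receptor, had -0.64 and -0.63 against 0.35 and 0.47, a difference of 1.05 ± 0.30, and its second probe gave 0.83. In all 3 the ADDL arrays were low and the ADDL+CAT-SKL arrays were above vehicle. Inhba, the activin subunit, differed by 0.80 but reached only -0.05 and -0.17 with ADDL+CAT-SKL, from -0.87 and -0.95 with ADDL. Slc40a1, the iron exporter ferroportin, differed by 0.77, with 0.38 from a second probe, and Tnfrsf12a, the receptor of TWEAK, by 0.75.

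**Figure D1:**
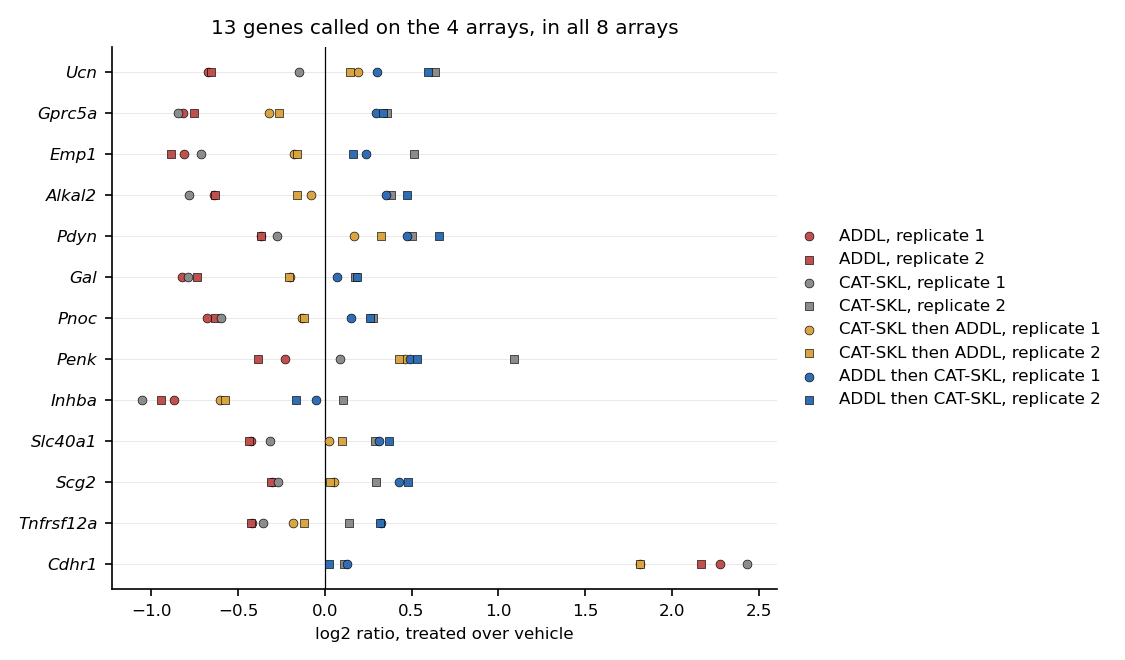
Log2 ratio of treated over vehicle (x axis) for the 13 genes called by limma on the 4 arrays alone, one point per array in all 8 arrays; circles are replicate 1 and squares replicate 2. For every gene the CAT-SKL replicate 1 point lies on the side of the ADDL arrays and the CAT-SKL replicate 2 point on the side of the ADDL+CAT-SKL arrays.

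The arrays labelled CAT-SKL alone divided along the same line as the compared groups. For 13 of these 13 genes, CAT-SKL replicate 1 lay on the ADDL side of the midpoint between the ADDL and ADDL+CAT-SKL means, and CAT-SKL replicate 2 on the ADDL+CAT-SKL side. Cdhr1 had 2.43 and 0.11 on the CAT-SKL arrays, and Gprc5a had -0.85 and 0.36. This division was found for 24.6% of all genes tested and for 31.2% of the 8904 genes whose compared groups did not overlap. Across the 22459 genes, the difference between the CAT-SKL arrays correlated with the difference between the groups at r = 0.526, a description over genes that are not independent. By their labels neither of these arrays received ADDL. The labels were kept as given; whether samples were exchanged was not tested, nor was the part in the comparison of whatever divides these replicates. The fit of 7 samples adds only the spread of the CAT-SKL pair to that of the 4 arrays. Leaving out either CAT-SKL array therefore repeats the fit of the 4 arrays by construction and is no separate result. On the CAT-SKL+ADDL arrays Cdhr1 had 1.82 and 1.82, and Ucn had 0.19 and 0.14.

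The 10 higher and 10 lower genes with the smallest p in the main fit, none of which passed, shared only Ucn and Tnfrsf12a with them. Man1a1, a Golgi mannosidase, had -0.22 and -0.17 with ADDL against 0.37 and 0.38 with ADDL+CAT-SKL, a difference of 0.57 ± 0.09. Srxn1, the sulfiredoxin that repairs oxidised peroxiredoxins, had -0.36 and -0.27 against 0.18 and 0.22, a difference of 0.52 ± 0.09. Crem, a cAMP-responsive transcription factor, had -0.54 and -0.51 against 0.09 and 0.26, a difference of 0.70 ± 0.12. The groups did not overlap for these genes, by the choice of the rule, and the 4 other probes of Crem gave 0.34 to 0.56. The list also held the somatostatin receptor Sstr3 (0.44), the DNA repair gene Ercc1 (0.64), Clic1 (0.56), the damage-response gene Gadd45a (0.50), Ucn, Tnfrsf12a and the chemokine Ccl3 (0.73). For Ccl3, the vehicle channel alone differed by 0.29 between the same arrays.

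Of the lower genes, the adhesion gene Cdh6 had 0.47 and 0.25 with ADDL against -0.36 and -0.37 with ADDL+CAT-SKL, a difference of -0.73 ± 0.13. Dll3, a Notch ligand of progenitors, had 0.35 and 0.27 against -0.21 and -0.18, a difference of -0.51 ± 0.09. Olig2, the oligodendrocyte lineage factor, had 0.57 and 0.69 against 0.11 and -0.12, a difference of -0.63 ± 0.12, but its other probe gave 0.03. Nacc2 (-0.47), the nicotinic receptor subunit Chrna4 (-0.47), C1h11orf86 (-0.51, but -0.07 by its other probe), choline dehydrogenase Chdh (-0.51), the haem synthesis enzyme Alas1 (-0.40), the circadian repressor Ciart (-0.39) and the adenylate kinase Ak5 (-0.41) completed the list.

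**Figure D2:**
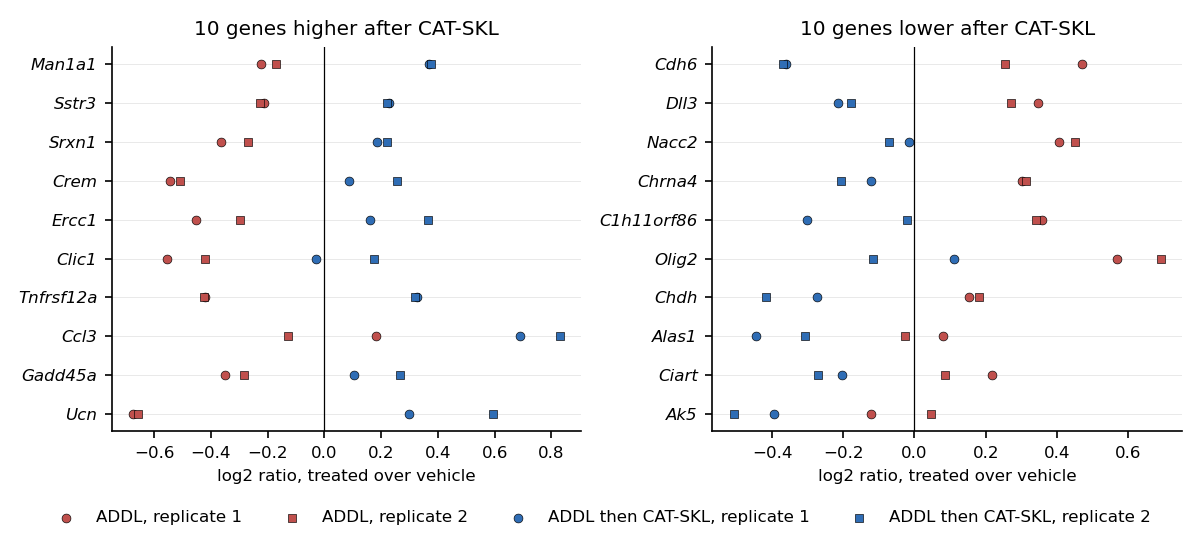
Log2 ratio of treated over vehicle (x axis) for the 10 higher (left) and 10 lower (right) genes with the smallest p among genes whose groups did not overlap, one point per array. None passed the limma test with loess scaling, and the separation of red from blue points follows from the rule that chose the genes.

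Immediate early genes lay higher with ADDL+CAT-SKL than with ADDL. The gene lists were chosen with earlier results of these data known, so their counts are a description and no independent test. Of 26 measured members, 0 passed over all genes, 15 had an unadjusted p under 0.05 in the higher direction and 0 in the lower, beside 3.73% and 4.67% of all genes. Both ADDL+CAT-SKL arrays were above both ADDL arrays for 20 members and below for 2, beside 19.1% and 20.6% of all genes. The median difference was 0.33, beside -0.01 over all genes. The median of the list was -0.22 and -0.28 on the ADDL arrays and 0.05 and 0.15 on the ADDL+CAT-SKL arrays, so the ADDL arrays lay below vehicle and the others slightly above it. On the CAT-SKL arrays it was -0.32 and 0.08, a spread as wide as the difference between the compared groups.

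Arc, a regulator of synaptic receptor trafficking, had -0.40 and -0.48 with ADDL and 0.22 and 0.26 with ADDL+CAT-SKL, a difference of 0.67 ± 0.17. Egr2, a zinc-finger factor, had -0.37 and -0.36 against 0.27 and 0.41, a difference of 0.70 ± 0.17. Egr4 had -0.54 and -0.61 against 0.03 and 0.33, a difference of 0.76 ± 0.28. None of these overlapped between groups. Klf4 (0.46), Ier5 (0.44), the MAP kinase phosphatases Dusp1 (0.42) and Dusp6 (0.40), Nr4a1 (0.37), Homer1 (0.34) and Egr1 (0.29) lay in the same direction. Fos, the best-known member, had 0.22 and 0.05 against 0.25 and 0.28, a difference of 0.13 ± 0.09, and it did not lie below vehicle with ADDL. Npas4 overlapped between groups (0.10 ± 0.17), while Egr3 (-0.12), Atf3 (-0.17), Btg2 (-0.08) and Nr4a3 (-0.18) lay the other way.

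Neuropeptide genes had a median difference of 0.19 over 22 measured members. Unadjusted p was under 0.05 for 10 higher and 1 lower, beside 3.73% and 4.67% of all genes, and groups did not overlap for 13 above and 3 below, beside 19.1% and 20.6%. Beside the precursors above, Tac1, which encodes substance P, had -0.36 and -0.39 against 0.32 and 0.54, a difference of 0.81 ± 0.18, with 0.61 from its second probe. Adcyap1, the PACAP gene, differed by 0.47, the neurotrophin Bdnf by 0.35 and Vgf by 0.32. The interneuron peptides Sst (-0.20), Npy (-0.06) and Cort (0.01) lay near or below 0. With the deposited log ratios the median of the list was 0.38. The CAT-SKL arrays had list medians of 0.01 and 0.24, about as far apart as the compared groups. Nxph1, a neurexin ligand, had -0.62, but -0.09 from its other probe.

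**Figure D3:**
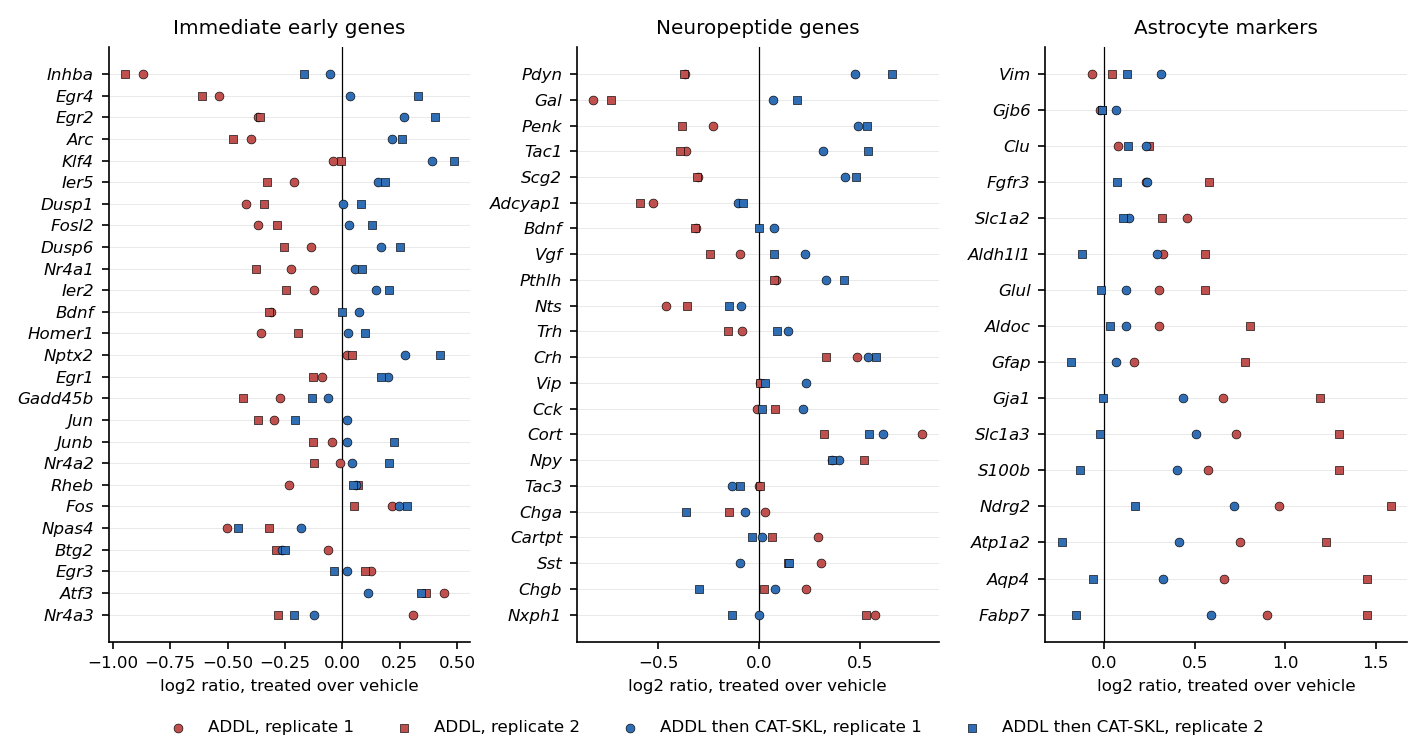
Log2 ratio of treated over vehicle (x axis) on the ADDL and ADDL+CAT-SKL arrays for the measured immediate early genes (26), neuropeptide genes (22) and astrocyte markers (16), one point per array, ordered by the difference of group means. Blue points lie to the right of red ones for most immediate early genes, and to the left for most astrocyte markers, where ADDL replicate 2 is farthest to the right.

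Some of these genes carry a cAMP response element, the palindrome TGACGTCA, close to their start sites. Both strands were searched in the window from 250 bases before to 50 bases after each RefSeq start (GRCr8). Promoters are shown for 4 genes that lay higher with ADDL+CAT-SKL and hold the element: Scg2 at chr9:88256867-88257116 (minus strand), Ucn at chr6:30957836-30958085 (plus strand), Dusp1 at chr10:17184603-17184852 (plus strand) and Vgf at chr12:25277021-25277270 (minus strand). The 250 bases before the start are printed 5′ to 3′, and capitals mark the element.
Scg2: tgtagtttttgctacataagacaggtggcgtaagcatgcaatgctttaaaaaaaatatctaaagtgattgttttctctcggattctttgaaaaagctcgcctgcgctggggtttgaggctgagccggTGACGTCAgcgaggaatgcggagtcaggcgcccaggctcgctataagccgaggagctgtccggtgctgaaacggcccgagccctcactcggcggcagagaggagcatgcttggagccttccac
Ucn: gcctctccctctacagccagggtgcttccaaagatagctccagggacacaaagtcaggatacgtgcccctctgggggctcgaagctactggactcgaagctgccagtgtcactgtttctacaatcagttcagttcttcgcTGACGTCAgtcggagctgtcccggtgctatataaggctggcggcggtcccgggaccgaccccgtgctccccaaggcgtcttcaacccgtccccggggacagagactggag
Dusp1: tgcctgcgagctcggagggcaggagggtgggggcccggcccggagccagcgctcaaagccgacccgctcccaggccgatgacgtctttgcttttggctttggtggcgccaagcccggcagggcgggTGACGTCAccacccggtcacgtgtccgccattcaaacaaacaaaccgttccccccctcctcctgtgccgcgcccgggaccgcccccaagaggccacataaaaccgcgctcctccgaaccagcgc
Vgf: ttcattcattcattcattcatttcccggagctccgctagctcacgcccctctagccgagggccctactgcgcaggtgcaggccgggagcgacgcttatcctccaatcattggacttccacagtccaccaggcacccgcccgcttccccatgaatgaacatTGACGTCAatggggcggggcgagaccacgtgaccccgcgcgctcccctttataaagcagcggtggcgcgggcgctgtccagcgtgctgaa
The element began at position -123 in Scg2, -110 in Ucn, -124 in Dusp1 and -90 in Vgf, counted from the start site. It was present in 2% of all 27457 promoters and in 2.92% of those of tested genes. Among genes with both ADDL+CAT-SKL arrays above both ADDL arrays and an unadjusted p under 0.05, 28 of 477 promoters held it (5.87%), and among those below, 8 of 430 (1.86%). It was found in 3 of 20 immediate early promoters (Dusp1, Ier2 and Btg2) and 4 of 16 neuropeptide promoters (Scg2, Vgf, Sst and Cartpt). Btg2, Sst and Cartpt did not lie higher, and Arc and Fos were without an entry, so a match in this window is a description only.

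Astrocyte markers lay lower with ADDL+CAT-SKL, with a median difference of -0.50 over 16 measured members. None passed over all genes, and 8 had an unadjusted p under 0.05 in the lower direction and 1 in the higher, beside 4.67% and 3.73% of all genes. Without overlap, 12 lay below and 1 above, beside 20.6% and 19.1%. The arrays of each group were far apart. The median of the list was 0.39 and 0.79 with ADDL and 0.30 and -0.02 with ADDL+CAT-SKL, so ADDL replicate 1 and ADDL+CAT-SKL replicate 1 were close while ADDL replicate 2 was high. On the CAT-SKL arrays this median was 0.78 and 0.28, about as far apart as the compared groups. The summed level of the list, as log2 of Cy5 over Cy3, was 0.54 and 1.04 with ADDL and 0.36 and 0.01 with ADDL+CAT-SKL. The median was -0.29 without ADDL replicate 2 and -0.79 without ADDL replicate 1, the range of the 15 alternatives run.

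Fabp7, a fatty acid carrier of radial glia and astrocytes, had 0.90 and 1.45 with ADDL and 0.59 and -0.15 with ADDL+CAT-SKL, a difference of -0.96 ± 0.36. Aqp4, the astrocyte water channel, had 0.66 and 1.45 against 0.33 and -0.06, a difference of -0.92 ± 0.37, with -0.42 and -0.25 from other probes. Slc1a3, a glutamate transporter, had 0.73 and 1.30 against 0.51 and -0.02, a difference of -0.77 ± 0.28, with -0.72 from a second probe. The groups did not overlap for these genes, but the replicates were spread about as widely as the groups. Gfap, the astrocyte filament, differed by -0.53, and S100b by -0.80, with -0.07 from its other probe. Vim lay higher (0.23) and Clu did not differ by more than its error (0.02 ± 0.09). In bulk RNA, fewer cells of a type and less RNA per cell cannot be told apart, and the part of the culture's glial content in other genes was not tested.

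Other glial markers lay lower as well, while the direction of progenitor genes depended on the arrays used. Oligodendrocyte lineage markers had a median of -0.16 (-0.10 without ADDL replicate 2, -0.28 with the deposited log ratios), with 7 of 16 below and 1 above without overlap, beside 20.6% and 19.1% of all genes. Olig1 had 0.79 and 0.89 against 0.17 and -0.32, a difference of -0.92 ± 0.23. Mbp, the myelin protein gene, differed by -1.18, but its other probe gave 0.10. Microglia markers had a median of -0.15 (-0.07 without ADDL replicate 1, -0.09 without ADDL+CAT-SKL replicate 1, -0.36 with the deposited log ratios), with 8 of 18 below and 0 above. The fractalkine receptor Cx3cr1 differed by -0.64 ± 0.19, and its vehicle channel alone differed by 0.22 between the same arrays. On the CAT-SKL arrays the oligodendrocyte list had medians of 0.16 and 0.01, and the microglia list 0.12 and 0.05. The median of proliferation and progenitor genes was -0.12, which became 0.04 without ADDL+CAT-SKL replicate 2 and -0.25 without replicate 1. Without overlap, 6 of 21 of these genes lay below and 3 above, not far from the shares of all genes. Sox2 had -0.79, or -0.50 by its second probe. Pan-neuronal genes as a list had a median of -0.04 (-0.12 to 0.08 over the alternatives), with 3 above and 4 below of 17. Within them the neurofilament genes Nefm (0.72 ± 0.16) and Nefl (0.66 ± 0.19) lay higher, and the neuronal tubulin Tubb3 (-0.42 ± 0.13) lower.

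**Figure D4:**
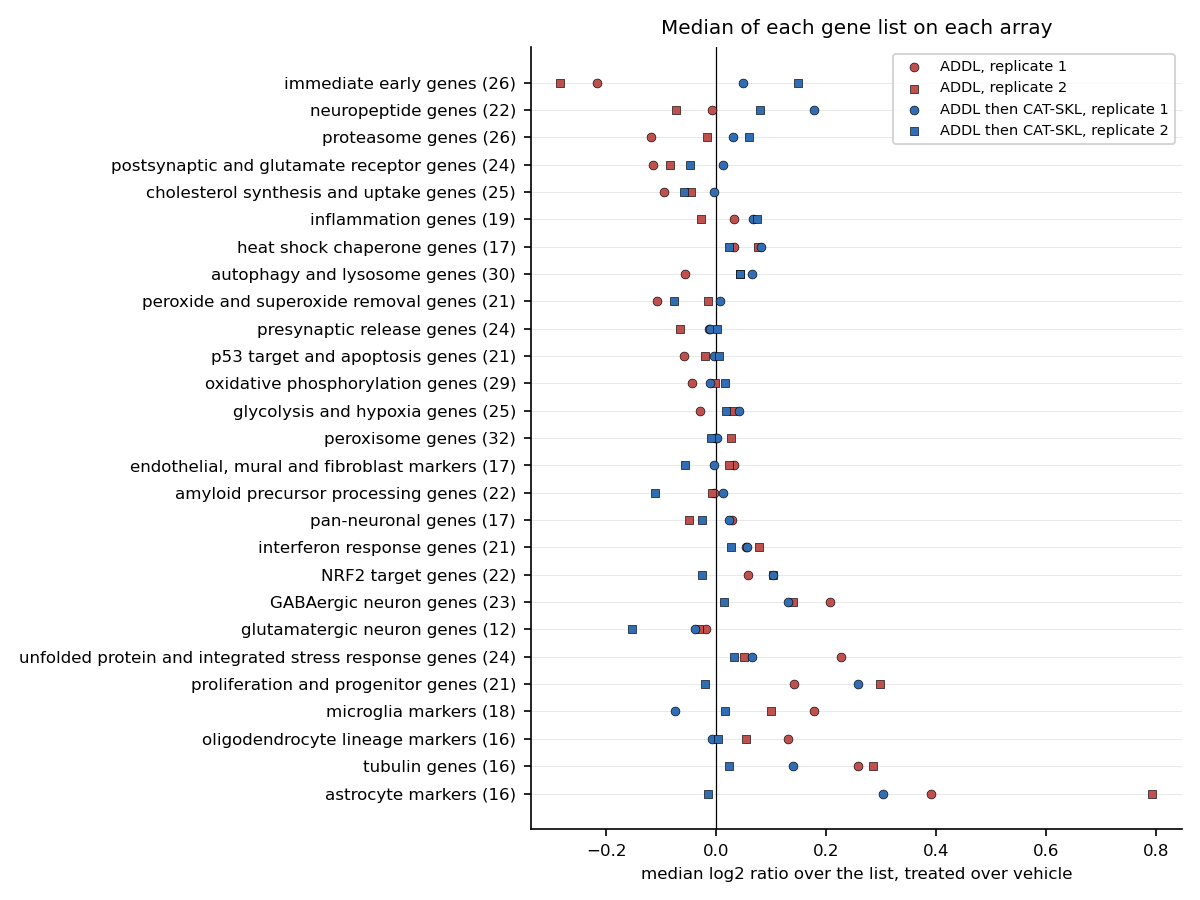
Median log2 ratio of treated over vehicle (x axis) of each gene list on each of the 4 arrays, with the number of measured members in brackets. Lists are ordered by the median, over their members, of the difference between the groups. Immediate early genes (0.33) stand at the top and astrocyte markers (-0.50) at the bottom, and most other lists lie near 0 in both groups.

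Tubulin genes, the subunits of microtubules, had a median of -0.22 (-0.12 with median centring and also without ADDL+CAT-SKL replicate 2). The CAT-SKL arrays had list medians of 0.45 and 0.14, farther apart than the compared groups. Without overlap, 12 of 16 lay below and 0 above, beside 20.6% and 19.1% of all genes, and 4 had an unadjusted p under 0.05 in the lower direction, beside 4.67%. Tubb5 had 0.38 and 0.46 with ADDL against 0.20 and -0.19 with ADDL+CAT-SKL, a difference of -0.42 ± 0.15. Near-identical tubulin copies may share signal on these probes. Proteasome genes lay slightly higher, with a median of 0.12 (0.07 without ADDL replicate 1 or without ADDL+CAT-SKL replicate 2, 0.24 with median centring). Without overlap, 14 of 26 lay above and 0 below, beside 19.1% and 20.6%, but 2 had an unadjusted p under 0.05, beside 3.73% for the higher direction. The largest, Psmb2, had -0.62 and -0.11 against -0.08 and 0.03, so ADDL replicate 1 set most of its difference of 0.34. Postsynaptic genes had a median of 0.09 (0.05 without ADDL+CAT-SKL replicate 1), with 13 of 24 above and 3 below without overlap, beside the same shares, and 3 higher and 1 lower at an unadjusted p under 0.05. Among them was the NMDA receptor subunit Grin1 (0.34, and 0.07 by its other probe). For Grin1 the vehicle channel alone differed by -0.12.

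Genes of the system that CAT-SKL adds to showed little difference as lists. The catalase gene Cat had -0.48 and -0.03 with ADDL and -0.25 and -0.28 with ADDL+CAT-SKL. The groups overlapped, and the difference was -0.01 ± 0.13 (limma adjusted p = 0.991, 95% interval -0.31 to 0.30). CAT-SKL was given as a protein, so its own amount is not measured by these probes. Genes that remove peroxide and superoxide had a median of 0.01, with 4 of 21 above and 5 below, and peroxisome genes -0.01, with 5 of 32 above and 8 below. Gpx1, a glutathione peroxidase, had 0.24 and 0.30 against -0.07 and -0.18, a difference of -0.40 ± 0.09. Targets of NRF2, the main antioxidant transcription factor, had a median of -0.06 (-0.13 to -0.01 over the alternatives), with 3 of 22 above and 5 below, and in this list Srxn1 lay higher while the glutathione transferase Gsta4 (-0.31 ± 0.09) lay lower. Unfolded protein and integrated stress response genes had a median of -0.10 (-0.03 without ADDL replicate 1, -0.16 without ADDL replicate 2, -0.02 with median centring), with 9 of 24 below and 1 above, among them Ddit3 (-0.28), which encodes CHOP. For these 4 lists the shares of members without overlap were not far from the 19.1% above and 20.6% below over all genes, except the last.

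The vehicle channel served as background. For the Cy3 difference between the same groups, fitted in all 7 samples, limma called 0 of 22459 genes. The smallest adjusted p was 0.0662, and 1927 genes (8.58%) had an unadjusted p under 0.05. The main fit gave 0.573 and 8.39%, so its share was not above that of the vehicle channel. The SD of the Cy3 difference across genes was 0.0755. In the treated channel alone the count of calls was 0, 2151 (9.58%) had an unadjusted p under 0.05, and the SD was 0.152. The median difference of immediate early genes was 0.31 for Cy5 and -0.01 for Cy3, and that of astrocyte markers -0.58 and -0.02. The median differences of these lists were thus larger in Cy5 than in Cy3. Across the 22459 genes, the Cy5 and Cy3 differences correlated at r = 0.327, a description over genes that are not independent. It is not known if the arrays shared a common vehicle RNA. If they did, Cy3 would hold only measurement noise, so it cannot show how far separate vehicle cultures differ.

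**Figure D5:**
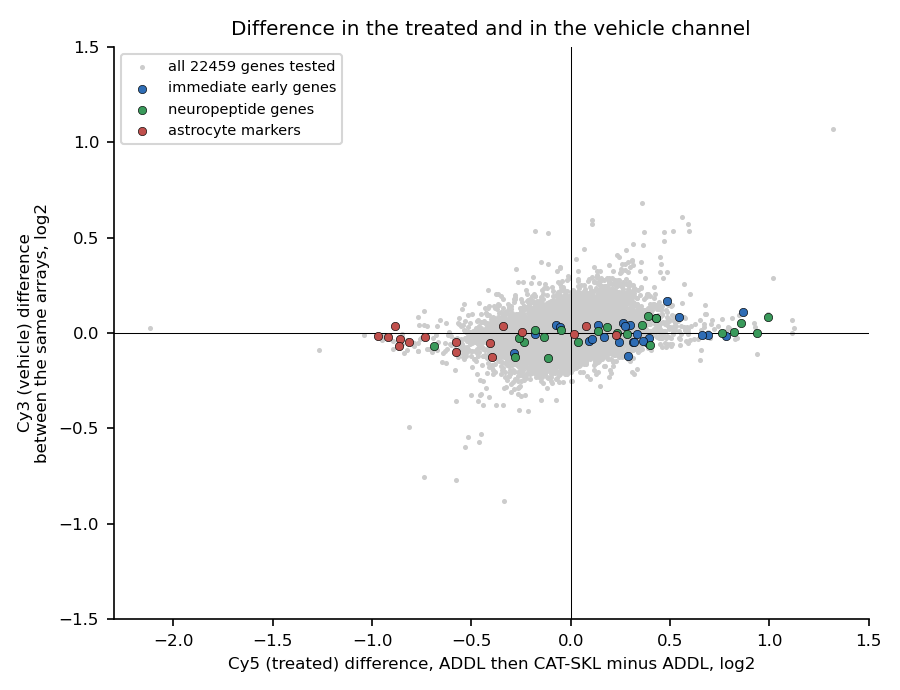
Difference between the ADDL+CAT-SKL and ADDL arrays in the treated channel (Cy5, x axis) and the vehicle channel (Cy3, y axis), both log2, for all 22459 genes tested (grey) and 3 gene lists (coloured). Coloured points spread along the x axis and stay near 0 on the y axis, where the list medians are -0.01 and -0.02 for immediate early genes and astrocyte markers.

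The order of treatment was compared directly. The CAT-SKL+ADDL arrays counted as 1 sample here, so their agreement is no replication and that group had no spread of its own. ADDL+CAT-SKL minus CAT-SKL+ADDL gave 0 calls of 22459 (limma, 0%), with 1266 genes at an unadjusted p under 0.05. The median of immediate early genes was -0.15 and -0.14 on the CAT-SKL+ADDL arrays, between those of the compared groups. The CAT-SKL+ADDL mean lay between the compared groups for 17 of the 22 immediate early genes and 3 of the 13 astrocyte markers whose groups did not overlap, beside 4353 of 8904 genes. Arc had -0.39 on both CAT-SKL+ADDL arrays, near its ADDL values, and Fabp7 had 1.51 and 1.46 there. Whether the difference seen after ADDL differed from that of CAT-SKL alone over vehicle was tested as an interaction. The limma test gave 0 calls (0%), with 3362 genes at an unadjusted p under 0.05 and a smallest adjusted p of 0.163. A dye effect of a probe does not cancel in this contrast, and the spread of the vehicle is left out of it, so the 3362 may include dye effects. The labels call the arrays biological replicates without naming separate cultures, so the p-values measure only the spread between these samples.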

How the data were processed

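Rat Agilent arrays with 62976 spots were hybridised with treated RNA in Cy5 and vehicle RNA in Cy3, per the labels. Scanner files deposited by the authors give intensity (the median signal of a spot in each channel, with its local background) and a log10 ratio of red over green (per the file headers; made with Agilent Feature Extraction 11.5, per the submitters' processing notes). The series table deposited by the authors repeats these log10 ratios (largest difference 0.005, array medians 0). Flags of a spot are 0 or 1, per the file headers.

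Intensities were normexp-corrected with an offset of 50 and loess-normalised within arrays, control spots having weight 0, in limma 3.58.1 (R 4.3.3). Each probe is the mean of its spots without outliers (902 to 1262 spots per array). Probes that stood well above background in Cy5 or Cy3 on 2 or more of 8 arrays were kept (25363, less 67 with a value missing), and a gene was its brightest probe. Symbols came from the RefSeq table of GRCr8 by unversioned accession: 17998 of 30367 probes, and 12944 of 22459 genes tested. Array coordinates are not given, since the design used another build.

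The contrasts were fitted in limma with lmFit and eBayes on 7 samples, with 3 residual and 5.05 prior degrees of freedom and Benjamini-Hochberg adjustment at 0.05. The CAT-SKL+ADDL arrays count as 1 sample: the r of their difference between first and second spots was 0.00741, against 0.271 to 0.678 for the other 27 pairs, over 15660 probes. Channels were separated after Aquantile normalisation. Errors are limma standard errors. The functions were tested on simulated data. The members, the 27 gene lists and the averaging were chosen with earlier results of these data known. Named genes were the 10 higher and 10 lower genes with a symbol, non-overlapping groups and the smallest p (none passed), up to 4 members per list by p, and Cat. The genes called on the 4 arrays alone, some further list members and the promoters shown were chosen after their values were seen. Same-numbered replicates did not deviate together: r of deviations was -0.20 between ADDL and ADDL+CAT-SKL, and between -0.09 and 0.08 for the other pairs of groups. Alternatives covered scaling, background, filter, probe choice, samples and the replicate block. The number of arrays limits the precision.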

Additional observations from a re-analysis of the deposited data

How the results depend on the processing

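For ADDL+CAT-SKL minus ADDL, limma called 0 genes in the main fit, with 8 separate samples, with the deposited log ratios, without background correction, under both other filters, with probes averaged or tested singly, and with trend and robust. It called 13 on the 4 arrays alone and 30 with median centring in place of loess (26 higher and 4 lower, 11 of them shared with the 13). Leaving out either CAT-SKL array repeats the fit of the 4 arrays by construction, so it is no separate result. Among the fits without another single array, the count moved from 0 only without ADDL replicate 2. Further fits of the 4 arrays, added after the data were seen, gave 0 with deposited log ratios, 9 without background correction and 141 with median centring. In that last fit the prior degrees of freedom were infinite, so every gene had the same standard error, and the count is not a usable one. With median centring of 7 samples they were 22.3, against 5.05 in the main fit. The replicate block gave 0 calls (1829 genes at an unadjusted p under 0.05), and so did the block with the ADDL numbers crossed (2299), added after the data were seen. It changed no other call.

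ADDL+CAT-SKL minus CAT-SKL+ADDL gave 5 calls with median centring and 0 to 3 when single arrays were left out. The interaction gave 310 with median centring and 0 to 524 when single arrays were left out, with 524 without CAT-SKL replicate 2 and 2 without CAT-SKL replicate 1. The vehicle channel gave 2 with 8 samples and 0 to 27 when single arrays were left out, with 27 without ADDL replicate 1. Without a CAT-SKL array, the other alone stands for its group in the interaction, and the spread of that pair no longer enters the error. What else moved these counts was not tested. The difference of Cat, -0.0066, turned to 0.0103 with median centring and 0.0728 with deposited log ratios, and lay between -0.233 (without ADDL replicate 1) and 0.22 (without ADDL replicate 2) when single arrays were left out, with 0.0122 without ADDL+CAT-SKL replicate 2. That of Col1a2 lay between -0.0850 (without ADDL+CAT-SKL replicate 1) and 1.80 (without replicate 2). The medians of immediate early, neuropeptide, astrocyte, tubulin and proteasome genes kept their sign under all 15 alternatives run for lists, at 0.30 to 0.40 for immediate early genes. Signal over background limits dim probes, most of all on ADDL+CAT-SKL replicate 2.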

Other observations

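Some genes differed between groups mainly on 1 array. Col1a2, a collagen gene of fibroblasts, had a log2 ratio of 1.83 on ADDL+CAT-SKL replicate 1 and -0.06 on replicate 2, and the peroxisomal transporter gene Abcd3 had -1.32 on ADDL replicate 1 and 0.07 on replicate 2. Calb1, a calcium-binding protein gene, had -0.31 and -0.12 with ADDL and 0.34 and 0.34 with ADDL+CAT-SKL, a difference of 0.55 ± 0.12. Slc32a1, the vesicular GABA transporter gene, had 0.80 and 0.73 against 0.39 and 0.25, a difference of -0.45 ± 0.16. Both are in the GABAergic list, whose median difference was -0.06. Cryab, a small heat shock protein gene, had -0.96 and -0.74 against 0.04 and 0.01, a difference of 0.87 ± 0.32, and the CAT-SKL arrays had -0.75 and 0.49. None of these genes passed the limma test of all 7 samples with loess scaling.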
